A study of Mus musculus with 3 samples.

Results

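Oprm1, Oprd1 and Oprk1 encode the mu, delta and kappa opioid receptors, Cnr1 the cannabinoid receptor CB1, Chrm1 and Chrm4 the muscarinic acetylcholine receptors M1 and M4, and Gpr6 and Gpr52 orphan receptors. Chromatin occupancy by the thyroid hormone receptor TRα1 at these 8 genes was examined in the adult mouse striatum. A TRα1 binding site (TRBS) was attributed to a gene when its summit lay inside the gene body or within 30 kb of the 5′ end of the gene. By this rule, 24 of the 23988 TRBS of the peak list were attributed to 7 of the 8 genes: 9 at Chrm4, 4 each at Cnr1 and Chrm1, 3 at Oprd1, 2 at Gpr52, and 1 each at Oprk1 and Gpr6. No TRBS was attributed to Oprm1. Over the whole annotation, 57.7% of the 21938 protein-coding genes had at least 1 TRBS by the same rule, which lies within the 95% Wilson interval of 7 of 8 genes (87.5%, 52.9 to 97.8%).

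The samples were striatum of untreated male C57BL/6J mice aged 8 weeks. The animals were euthyroid and carried a TRα1 with a GS tag, which serves to precipitate the receptor without an antibody against TRα1. A floxed construct restricts the tagged receptor to a single cell type, here GABAergic neurons; the Cre line was not named in the sources used here, and all 3 libraries came from such animals. There were 2 ChIP libraries and 1 input library, and the peak list is 1 table without values for each library. Each value below is therefore 1 value for the series, with no replicate error, and nothing below is a test between groups. The list does not say in which GABAergic neurons a site was occupied.

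All 8 proteins are receptors of the G protein-coupled family. The opioid receptors, CB1 and M4 couple to Gi/o proteins and lower cAMP. M1 couples to Gq and activates phospholipase C. Gpr6 and Gpr52 couple to Gs-type proteins and raise cAMP, and both are known from striatal projection neurons of the indirect pathway, while M4 is enriched in those of the direct pathway. TRα1 usually binds DNA as a heterodimer with RXR, on direct repeats of the half-site AGGTCA separated by 4 bases, called DR4.

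The fold enrichment is the ChIP pileup (the number of overlapping fragments at the summit, plus 1) over the local background of the peak caller (plus 1). The score is 10 times the −log10 of the q-value, and the list begins at a score of 60. The 24 sites had a median fold enrichment of 6.30 (lowest 5.54, highest 26.0), beside 7.40 over all TRBS, and 8 of the 24 lay above this overall median. Their median pileup was 17.5 fragments (14 to 69), beside 21 over the list. A score under 100 was found for 15 of the 24 sites (62.5%, Wilson interval 42.7 to 78.8%), beside 39.4% of the list. These intervals cover counting error only. The weak sites were mostly those of the muscarinic receptor genes: at Chrm1 and Chrm4, 12 of 13 sites lay below the overall median and 12 had a score under 100, whereas at the 5 other genes with sites 7 of 11 lay above the median and 3 had a score under 100. In all, 5 of the 24 sites had a fold enrichment of at least 10 (20.8%, Wilson interval 9.24 to 40.5%), beside 29.8% of the list. There was 1 each at Oprd1, Gpr6, Gpr52, Cnr1 and Chrm4, the last of them at the start of the neighbouring gene Mdk.

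The sequences at the centre of the strongest sites of Oprd1, Gpr6 and Cnr1 are shown first because these sites lie outside any protein-coding gene and, with that of Gpr52, have the highest fold enrichments of the 24. Each is the plus strand of GRCm38, 30 bases on either side of the summit, with capitals for hexamers that differ from AGGTCA or its reverse complement by at most 1 base. Such a hexamer was found in the same window in 56.0% of all TRBS and in 11 of the 24 sites.
Oprd1, chr4:132155311-132155371: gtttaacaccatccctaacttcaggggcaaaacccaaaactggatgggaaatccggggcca
Gpr6, chr10:41063732-41063792: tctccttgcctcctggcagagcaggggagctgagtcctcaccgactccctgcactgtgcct
Cnr1, chr4:33901506-33901566: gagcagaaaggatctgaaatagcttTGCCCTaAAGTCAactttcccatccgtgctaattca
The windows of Oprd1 and Gpr6 held no such hexamer. The window of Cnr1 held 1 on each strand, separated by a single base.

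The DR4 elements of the receptor genes are the next set. DR4 was searched on both strands as AGGTCA, 4 bases, AGGTCA, 2 mismatches being allowed over the 12 bases of both half-sites. It was found within 100 bp of the summit in 2 of the 24 sites (8.33%, Wilson interval 2.32 to 25.8%), beside 13.1% of all TRBS and 2.3% of windows placed 5 kb to the right of all TRBS. The corresponding windows to the right of the 24 sites held none, which allows a share of up to 12.5% when a count of 0 is taken as fewer than 3. Over the whole width of the sites the count was 3 of 24, beside 17.3% of all TRBS. The elements are written 5′ to 3′ on their own strand, half-sites in capitals, with positions counted from 1 at the 5′ end.
Gpr52, chr1:160577979-160577994, plus strand: AGGTGAaaagAGGTCT
Chrm1, chr19:8691994-8692009, minus strand: AGGTGAggtaAGCTCA
Cnr1, chr4:33924256-33924271, minus strand: ACCTCActggAGGTCA
The Gpr52 element (C5G and A16T) was centred 6 bp from the summit and the Chrm1 element (C5G and G13C) 2 bp from it. The Cnr1 element, with G2C and G3C in its upstream half-site and an intact downstream one, was 193 bp from the summit and counted only over the whole width of the site. Since 2 of 24 is close to the share of the list, these matches describe the single sites and do not set the receptor genes apart.

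**Figure D1:**
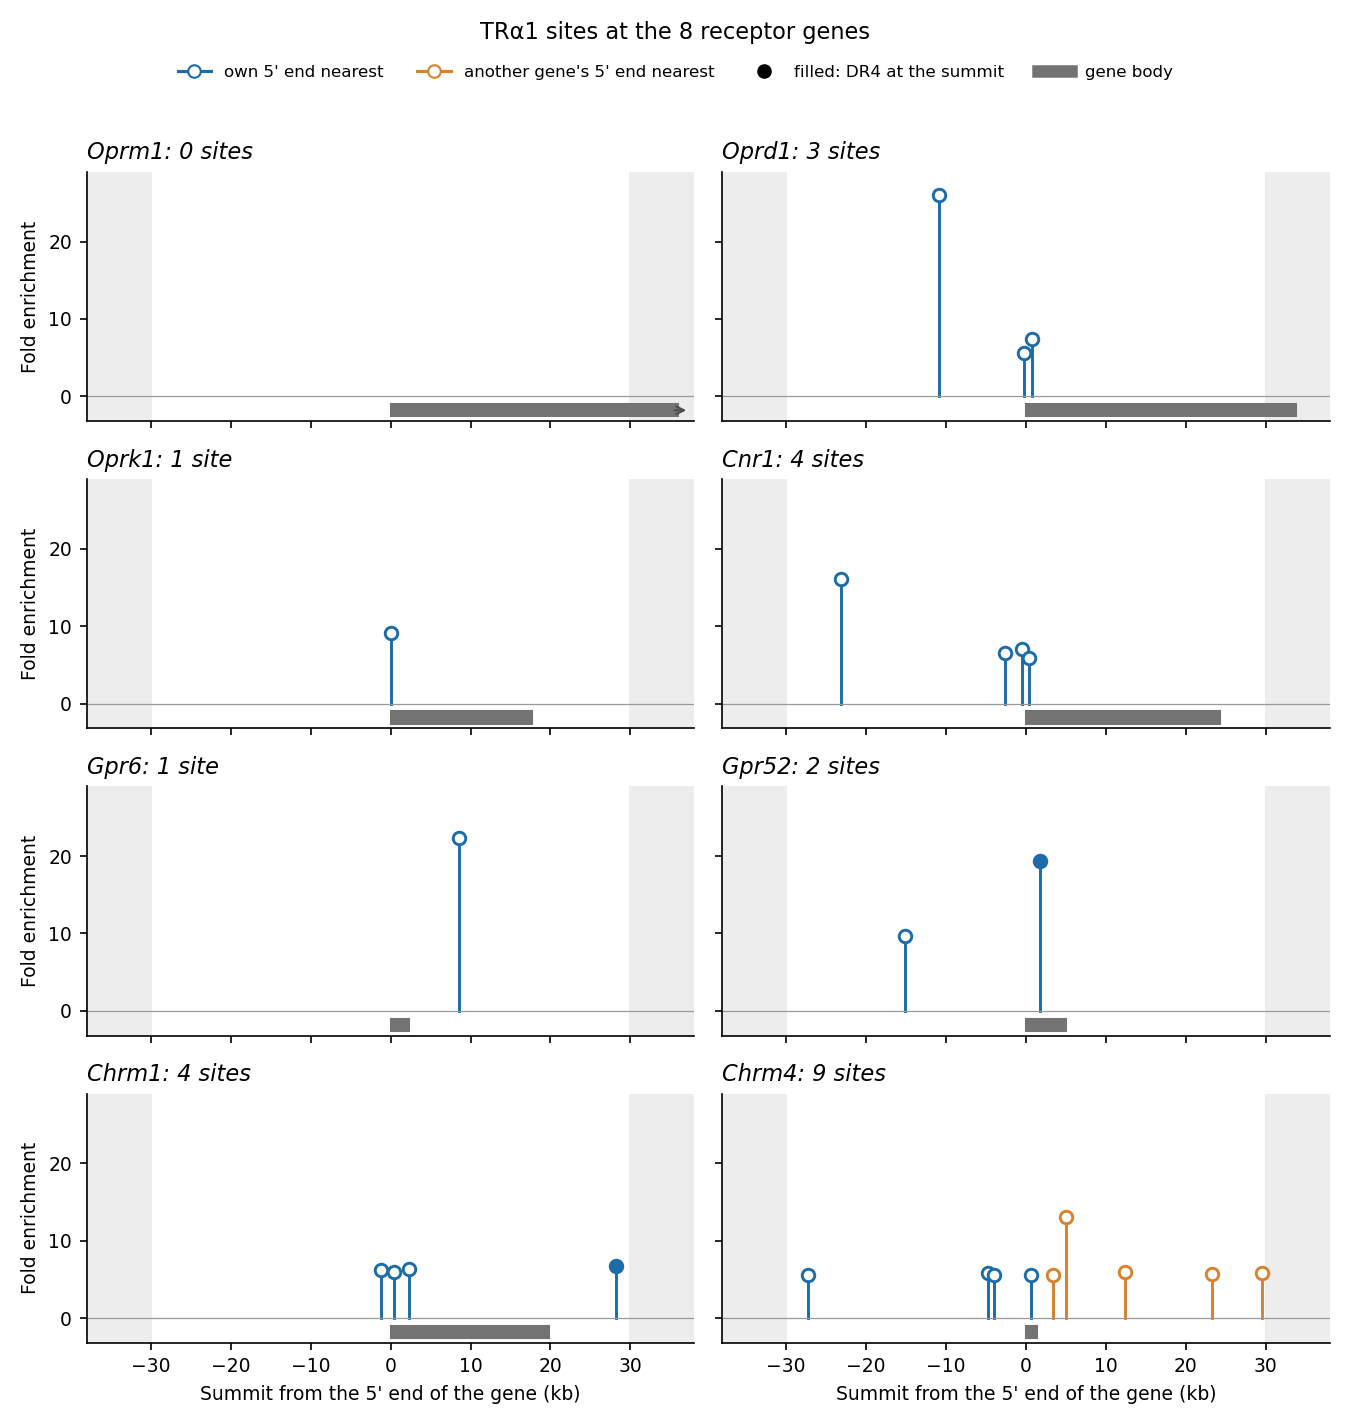
TRBS at the 8 receptor genes: fold enrichment (y axis) against the distance of the summit from the 5′ end of the gene in kb (x axis, positive in the direction of transcription). Blue marks sites whose nearest protein-coding 5′ end is that of the gene and orange the others, filled circles hold DR4 within 100 bp of the summit, bars below are gene bodies, and the grey margins lie beyond 30 kb; the strongest site of Cnr1 is at −23057 bp and that of Oprd1 at −10855 bp, whereas most sites of Chrm4 stay below a fold enrichment of 6.

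Among the opioid receptors, Oprm1 was without a TRBS. Its record covers 279693 bp (chr10:6758506-7038198, plus strand), and with the 30 kb upstream the region examined was 309693 bp. The summit nearest to its 5′ end was 71892 bp upstream (chr10:6686248-6686798, pileup 32, fold enrichment 12.3). Long genes collect more sites: among the 775 protein-coding genes within 1.5 times its length, 85.3% had at least 1 TRBS and the median was 2, while 114 genes (14.7%) had none, as Oprm1. A missing TRBS says that no peak passed the score of 60 in this list, not that the receptor was absent.

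Oprd1 (chr4:132110726-132144486, minus strand) had 3 TRBS. The strongest of the 24 sites was 10855 bp upstream of its 5′ end (chr4:132155133-132155598), with 69 fragments at the summit, 26.0-fold enriched and with a score of 809. Its local background was 1.69 fragments, the lowest value in the list. This floor was common: 42.6% of all TRBS and 12 of the 24 sites were at it. By fold enrichment the site ranked 1228 of 23988. No gene of any type overlapped its summit, and the nearest annotated 5′ end was that of the pseudogene Gm13215, at 6457 bp. The other sites flanked the start of the gene and were lower. One was 176 bp upstream (chr4:132144462-132144870), with 14 fragments at the summit, 5.58-fold enriched and with a score of 66, in sequence of 75.6% GC. The other was 742 bp downstream of the 5′ end, in an intron (chr4:132143550-132144229, pileup 19, fold enrichment 7.44, score 115). The upstream site thus had a pileup of 69 fragments against 14 and 19 at the start of the gene.

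Oprk1 (chr1:5588466-5606131, plus strand) had 1 TRBS, placed on its 5′ end. The summit was 19 bp inside the gene, in the 5′ UTR (chr1:5588171-5588948), with a pileup of 26, a fold enrichment of 9.17 and a score of 179. It was the only site of the gene, and the next nearest summit was 470223 bp upstream. The 3 opioid receptor genes therefore had 3 arrangements: no site, a strong distal site with lower ones at the start, and a moderate site at the start alone.

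Cnr1 (chr4:33924593-33948831, plus strand), which encodes the main cannabinoid receptor of neurons, had 4 TRBS, 3 of them close to its start. The strongest was 23057 bp upstream (chr4:33901302-33901839), with a pileup of 62, a fold enrichment of 16.1 and a score of 555. Its local background of 2.92 fragments was above that of the distal Oprd1 site, so that a pileup close to that of Oprd1 gave a lower fold enrichment. It held no DR4 with at most 2 mismatches. The closest arrangement, allowing 3 mismatches, was AGTTGActttAGGGCA on the minus strand (chr4:33901531-33901546, G3T, C5G and T14G), centred 2 bp from the summit. It spans both hexamers in capitals above, of which TGCCCT is its downstream half-site read on the plus strand. A DR4 with at most 3 mismatches was present at 38.2% of all summits and at 11 of the 24, so that this match is a common one.

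The other sites of Cnr1 were 2654 bp upstream (chr4:33921782-33922020, pileup 18, fold enrichment 6.53), 523 bp upstream (chr4:33923941-33924557, pileup 21, fold enrichment 7.02) and 379 bp inside the gene in the 5′ UTR (chr4:33924858-33925094, pileup 16, fold enrichment 5.93). The site at 523 bp had 81.1% GC and 28 CpG within 100 bp of its summit. In the RefSeq annotation of the same build, Cnr1 begins further upstream, and this summit lies in a 5′ UTR, 30 bp downstream of a transcript start. The pileups of these 3 sites, 16 to 21, were at or below the median of the list.

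Of the orphan receptors, Gpr6 (chr10:41069977-41072285, minus strand) had 1 TRBS, and it was strong. It lay 8523 bp downstream of the 5′ end, beyond the 3′ end of this short gene (chr10:41063329-41063991), with a pileup of 59, a fold enrichment of 22.3 and a score of 651. It ranked 1690 of 23988 by fold enrichment. Its local background was at the common floor of 1.69 fragments. No annotated gene overlapped its summit, and the nearest 5′ end of any gene was that of Gpr6 itself. The fewest mismatches of any DR4 arrangement within 100 bp of its summit were 4.

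Gpr52 had no record in GENCODE vM21 and was placed by its RefSeq record (chr1:160574717-160579704, minus strand). It lies within Rabgap1l, a gene of the Rab GTPase-activating protein family. Both of its TRBS had a pileup of 51. At the site 1724 bp inside Gpr52, in its intron (chr1:160577610-160578340), the fold enrichment was 19.3 over a local background of 1.69, the floor of the list. At the site 15060 bp upstream, in an intron of Rabgap1l (chr1:160594239-160594939), it was 9.67 over a local background of 4.38. The difference in fold enrichment between these sites thus came from the background and not from the pileup. The intronic site holds the DR4 AGGTGAaaagAGGTCT shown above, and it is the only site of the receptor genes with both a fold enrichment of at least 10 and DR4 at the summit.

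Chrm1 (chr19:8663789-8683587, plus strand) had 4 TRBS of similar and low strength. The first was 1200 bp upstream of the gene, in an intron of the lincRNA AC025794.1 (chr19:8662439-8662943, pileup 19, fold enrichment 6.27). The second was 370 bp inside, in the 5′ UTR (chr19:8663992-8664323, pileup 15, fold enrichment 5.95). The third was 2298 bp inside, in an intron (chr19:8665918-8666197, pileup 16, fold enrichment 6.32). The last, 28214 bp from the 5′ end and beyond the 3′ end of the gene (chr19:8691860-8692224), was 6.69-fold enriched with 17 fragments at its summit, and it holds the DR4 AGGTGAggtaAGCTCA. All 4 scores were between 76 and 96, so that Chrm1 was without a site at a score of at least 100.

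Chrm4 had 9 TRBS, a number reached by 264 of the 21938 protein-coding genes (1.2%). The sites were weak except for 1, and they were spread over a region that holds several genes. Only 1 lay in the GENCODE record of Chrm4 (chr2:91927249-91928688, plus strand), 661 bp from its 5′ end, in the coding exon (chr2:91927826-91928139, pileup 15, fold enrichment 5.61). This record is 1440 bp long, whereas that of RefSeq begins upstream and covers 7647 bp (chr2:91922189-91929835). A pair of sites that are 4763 bp (chr2:91922348-91922578, pileup 15, fold enrichment 5.84) and 4017 bp (chr2:91922941-91923344, pileup 14, fold enrichment 5.58) upstream of the GENCODE record lie in the 5′ UTR of the RefSeq record, 119 and 865 bp from a transcript start. A further site was 27232 bp upstream, in an intron of Ambra1, a regulator of autophagy (chr2:91899683-91900331, pileup 18, fold enrichment 5.54).

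The remaining 5 sites of Chrm4 were downstream and nearer to the 5′ end of another protein-coding gene. The strongest of the 9 was among them: it was 32 bp from the 5′ end of Mdk, which encodes the growth factor midkine (chr2:91931756-91932673, pileup 34, fold enrichment 13.0, score 294), and 5016 bp from that of Chrm4. A weaker one was in an intron of Mdk (chr2:91930425-91930718, pileup 14, fold enrichment 5.58). The other 3 were in Dgkz, which encodes a diacylglycerol kinase, 12356, 23320 and 29579 bp from the start of Chrm4, with pileups of 15, 17 and 16 and fold enrichments of 5.95, 5.74 and 5.77. For these, the nearest protein-coding 5′ end was that of Gm9821. Without the site at Mdk, the 8 others had fold enrichments between 5.54 and 5.95 and scores between 66 and 79. The large number of sites at Chrm4 therefore rested on sites close to the limit of the list, and at a score of at least 100 only the site at the start of Mdk was left.

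**Figure D2:**
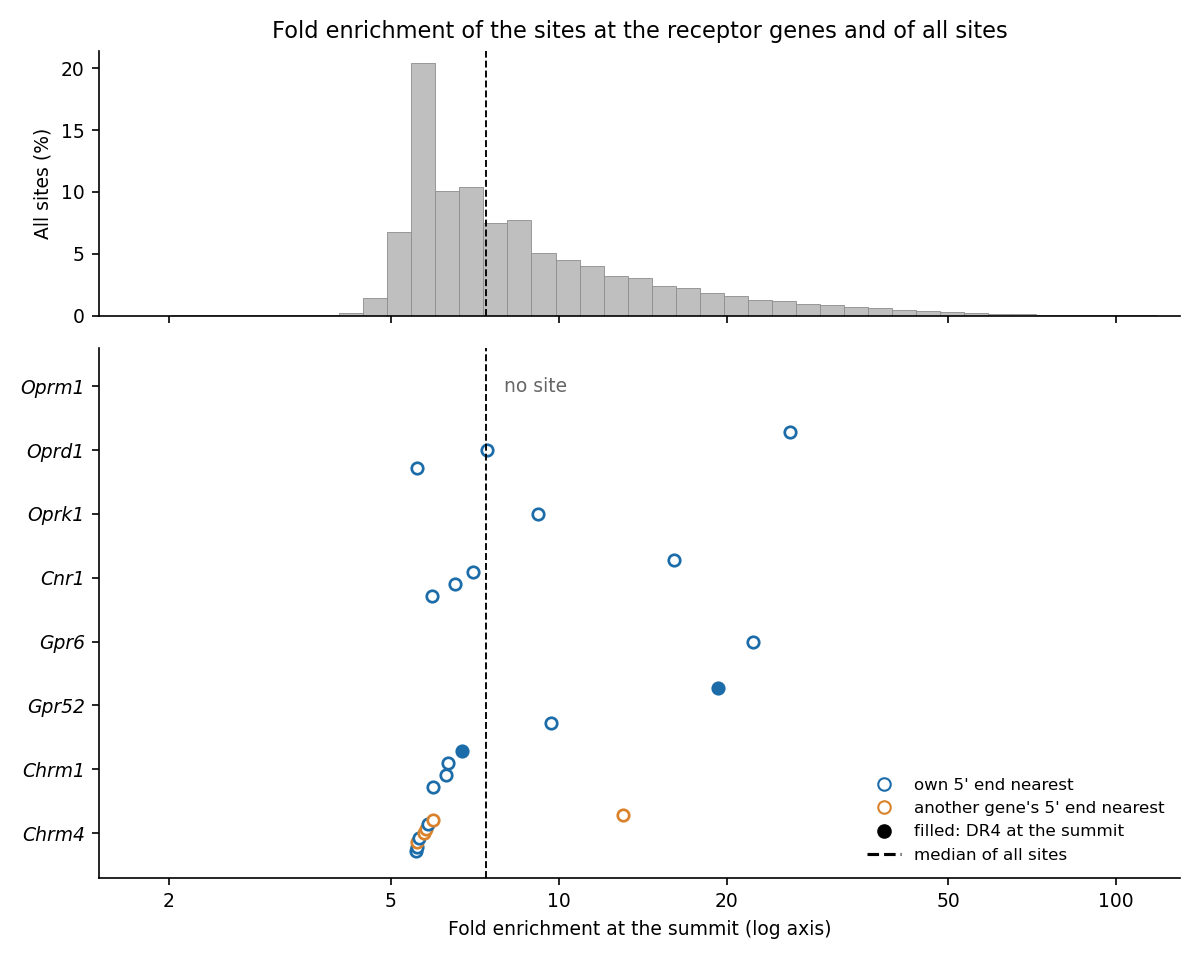
Fold enrichment (x axis, log scale) of all 23988 TRBS as a histogram in percent (upper panel) and of each of the 24 sites by receptor gene (lower panel, 1 circle a site, spread vertically only to separate them; colours and filling as in the plot by distance). The dashed line is the median of all TRBS, 7.40: the 4 sites of Chrm1 and 8 of the 9 sites of Chrm4 lie to its left, and those of Oprk1, Gpr6 and Gpr52 to its right.

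The rule has a limit at 30 kb. Just inside it were the Chrm4 site at 29579 bp, the Chrm1 site at 28214 bp and the Chrm4 site at 27232 bp, with fold enrichments of 5.77, 6.69 and 5.54. Between 30 and 50 kb there were 3 further sites: 31336 bp from Gpr52 (fold enrichment 7.90), 32057 bp upstream of Cnr1 (6.32) and 36236 bp downstream of the 5′ end of Gpr6 (10.8). For each of these 3, the nearest protein-coding 5′ end was that of the receptor gene.

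The number of sites can be read against the length of the genes. The regions of the 8 genes covered 0.733 Mb and held 32.7 TRBS per Mb, beside 13.3 per Mb in the corresponding regions of all protein-coding genes and 8.80 per Mb of the chromosomes. The value depended on single genes: it was 22.3 per Mb without Chrm4, which alone supplied 9 of the 24 sites, and 56.6 per Mb without the long region of Oprm1, which supplied none. Apart from Oprm1 and Oprd1, each receptor gene had a region of 60001 bp around its 5′ end, and the densities were not matched for gene length. Among genes of like length the median was 1 site for Oprd1, Oprk1, Cnr1 and Chrm1 and 0 for Gpr6, Gpr52 and Chrm4. Only Chrm4, with 9 sites against 4, lay above the 95th percentile of its group. Cnr1 and Chrm1, with 4 sites, were at it.

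**Figure D3:**
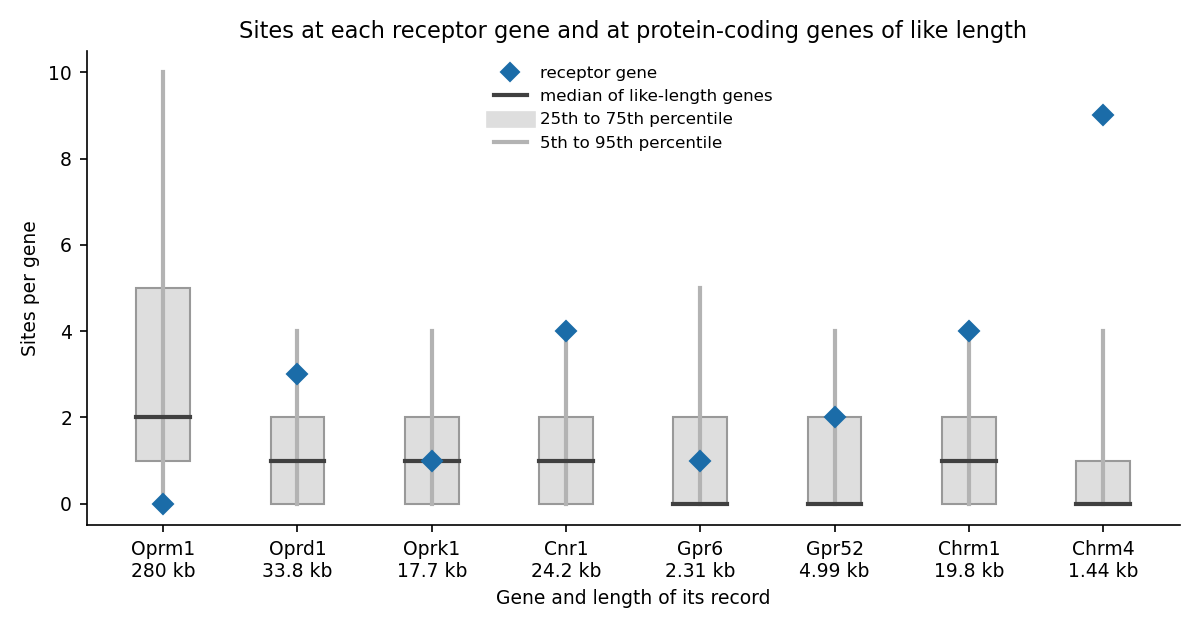
Number of TRBS at each receptor gene (diamonds) and at protein-coding genes within 1.5 times its length (median, 25th to 75th percentile as boxes, 5th to 95th percentile as lines), with the length of the gene record in kb below each name. Chrm4, with 9 sites, is far above the 0 of its median, Cnr1 and Chrm1 have 4 against 1, and Oprm1 has 0 against 2.

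The 24 sites can also be described by their position and by short motifs. Within 1 kb of the 5′ end of a protein-coding gene lay 8 of 24 sites (33.3%, Wilson interval 18.0 to 53.3%), beside 20.4% of the list. The SP/KLF box GGGCGG, a GC-rich element of many promoters, was found within 100 bp of the summit in 11 of 24 sites (45.8%, Wilson interval 27.9 to 64.9%), beside 18.2% of all TRBS. By position, 4 of the 8 sites within 1 kb of a 5′ end and 7 of the other 16 held it, beside 52.8% and 9.27% of the list. These 7 were 4 sites of Chrm4, 2 of Chrm1 and 1 of Gpr52, and the pair of Chrm4 sites in the RefSeq 5′ UTR was among them. The split by position used the GENCODE start of Chrm4 and would change with RefSeq. From RefSeq transcript starts, this pair lay at 119 and 865 bp and the Chrm4 site in the coding exon at 5543 bp. The sites of 1 gene share their surroundings and are not independent of each other, so that the share with the SP/KLF box was not tested. The median GC content within 100 bp of the summit was 54.7% at the 24 sites, beside 50.7% over the list, and its part in the share was not tested.

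For the other motifs, the Wilson interval of the 24 sites included the share of the list. The exact half-site AGGTCA was found in 3 of 24 (12.5%), beside 17.8%, and the E-box CAGATG of neuronal bHLH factors in 3 of 24, beside 15.1%. The AP-1 motif TGANTCA was found in 0 of 24 (upper Wilson limit 13.8%, or 12.5% with a count of 0 taken as fewer than 3), beside 11.5% of all TRBS. The CRE TGACGTCA, bound by CREB, was also found in 0 of 24, beside 0.542%. These motifs and the SP/KLF box were searched on both strands without mismatches, and none of them contains another. DR4, searched with up to 2 mismatches, can hold an exact half-site, as the Cnr1 element does.

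**Figure D4:**
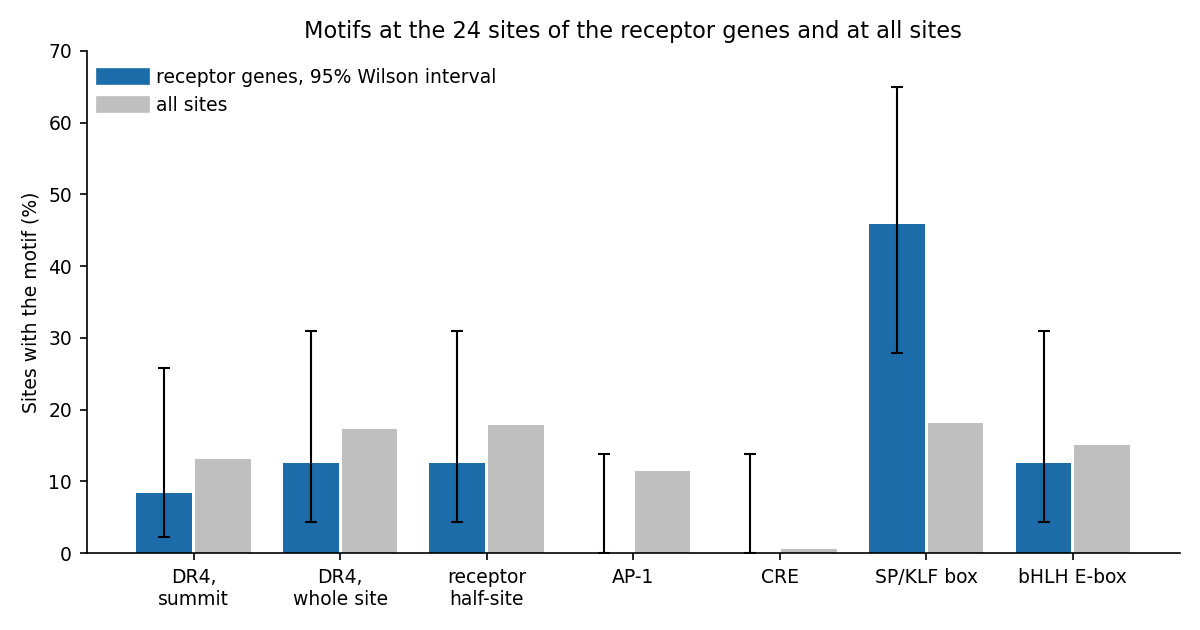
Share of sites with each motif in percent (y axis) for the 24 sites of the receptor genes (blue, with 95% Wilson intervals) and for all 23988 TRBS (grey); motifs are within 100 bp of the summit, except DR4 over the whole site. The SP/KLF box is at 45.8% against 18.2%, DR4 at the summit at 8.33% against 13.1%, and AP-1 and CRE were found in none of the 24.

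Genes that act with these receptors were examined by the same rule, and 37 of 50 (74.0%) had at least 1 TRBS, beside 57.7% of all protein-coding genes. These shares were not matched for gene length, and long genes collect more sites. Within 30 kb of the 5′ end alone, without the gene bodies, 33 of the 50 had a TRBS. The corresponding share of all protein-coding genes was not computed. At 12 of the 37, the highest site was nearest to the 5′ end of another protein-coding gene, 9 of them genes of G proteins or regulators. In the receptor family, 5 of 10 further genes had TRBS. Chrm3, a Gq-coupled muscarinic receptor, had 7, the highest at a fold enrichment of 26.5 in the body of the gene, 116248 bp from its 5′ end. Chrm5 had 2 (up to 11.5) and Chrm2, which couples to Gi/o as M4 does, had none. The relatives of Gpr6 both had sites at their start: Gpr3 had 4, the highest 526 bp upstream (fold enrichment 22.7), and Gpr12 had 3, the highest 462 bp inside (19.7). Gpr55, a receptor of lysophosphatidylinositol, had 3 (up to 16.3, nearest to 4933407L21Rik). Oprl1 (nociceptin receptor), Cnr2 (cannabinoid receptor CB2), Gpr18 and Gpr21 had none.

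Among the ligands, 2 of the 4 opioid precursor genes had TRBS, beside 57.7% of all protein-coding genes, and these sites were weak. Penk, the precursor of enkephalins, had 1 site 152 bp upstream of its 5′ end (fold enrichment 6.97), and Pomc had 3 (up to 7.00). Pdyn, the precursor of dynorphins, and Pnoc had none. All 8 genes of endocannabinoid enzymes and their partners had TRBS, beside the same 57.7%, without matching for gene length. Dagla, which makes 2-AG, had 4 (the highest 4680 bp inside the gene, fold enrichment 20.8) and Mgll, which degrades it, had 4 (the highest 307 bp inside, 13.1). Daglb had 2 (up to 11.3, 29977 bp upstream of its 5′ end), Cnrip1 2 (up to 11.2) and Faah 2 (up to 9.41). Abhd6 had 2 (up to 6.69), Napepld 1 (4.95) and Abhd12 1 (5.95, nearest to Pygb). Of the 5 cholinergic genes, Ache, the esterase that ends the signal of acetylcholine, had 2 (up to 12.5, 92 bp inside the gene), and Bche had 1 (5.95). Chat had 1 (8.93), which was 38391 bp from its 5′ end and nearest to that of the transporter gene Slc18a3, although no site met the rule for Slc18a3. The transporter gene Slc5a7 had none.

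Downstream of the receptors, 7 of 9 G protein genes and 12 of 14 regulators had TRBS, beside 57.7% of all protein-coding genes. These counts were not matched for gene length either. The highest site was nearest to another gene at 5 of the 7 and at 4 of the 12. Gnao1, the α subunit of Go, had 11, the highest at a fold enrichment of 67.3, 29489 bp inside the gene. Gnaq, the α subunit of Gq, had 9 (up to 42.6) and Gnal, which encodes the Gs-type α subunit of the striatum, had 10 (up to 33.2), although the highest sites of both were nearer to the 5′ end of another gene, Gna14 and Chmp1b. Gnai1 and Gnas had none. Rgs9, a striatal regulator that ends Gi/o signals, had 8 sites, the highest at a fold enrichment of 90.4, 8691 bp inside the gene. Grk6 had 6 (up to 30.9, nearest to Prr7) and Gprasp1 had 1 (20.8, nearest to Bhlhb9), whereas Rgs14 and Grk2 had none. The highest sites of Gnao1, Gnaq, Gnal, Rgs9 and Grk6 were thus above each of the 24 sites at the receptor genes themselves, as was that of Chrm3 (26.5). Each is the highest of several sites of its gene, and the share of all genes with so high a site was not computed.

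Among marker genes of 5 cell types, 10 of 18 had TRBS (55.6%, beside 57.7% of all protein-coding genes). All 6 of striatal GABAergic neurons had TRBS, with 31 in all and up to 42.4 at Ppp1r1b. TRBS were also found at 1 of 3 cholinergic genes, 0 of 3 astrocyte genes, 2 of 3 oligodendrocyte genes (Mbp with 11, Mog with 2) and 1 of 3 microglia genes (Cx3cr1 with 3). The highest sites of Drd1, Chat, Mog and Cx3cr1 were nearest to another gene, respectively Sfxn1, Slc18a3, Gabbr1 and Csrnp1. A peak list gives occupancy and not expression, so that these counts do not measure the share of other cells, and their part in the sites of the receptor genes was not tested.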

How the data were processed

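Per the labels, the reads were aligned to mm10 (GRCm38) with Bowtie2 2.3.2.2 and peaks were called with MACS2 2.1.1.20160309.0. The study states that peaks with a score below 60 were removed. Whether the 2 ChIP libraries were pooled, how duplicates were treated and the depth of the libraries are not given in the sources used here. The authors deposited for each peak, at its summit, the pileup (a coverage signal), the fold enrichment, the score and −log10 values, of which −log10 p was not used. The deposited score was the −log10 q value times 10, without its decimals. These are values of 1 list without replicates, and no test was made. The local background was taken as (pileup + 1) / fold enrichment − 1.

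Genes were taken from GENCODE vM21. Gpr52 is not in it and was placed by RefSeq on the same build. Sequences were read from the GRCm38 genome at the positions of the list, with pysam 0.24.0, and tables were made with pandas 2.3.3 in Python 3.11.15. Scripts for assignment and motif search were checked on simulated data. All sites of the receptor genes are given. Of the pathway lists, up to 3 genes with the highest fold enrichment and all genes of the family list are named, with further genes named after their values were seen. The receptor genes, the lists and the threshold of 10 on fold enrichment were chosen with earlier results of these data known. Alternatives changed the distance, score limit, position, annotation and motif settings.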

Additional observations from a re-analysis of the deposited data

How the results depend on the processing

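Oprm1 had 0 sites under every alternative run, but none could change this count. The summit nearest to its 5′ end was 71892 bp upstream, and the widest distance tried was 50 kb. Of 66 alternative values of 6 results, 55 stayed within 1.5 times the main value (for the share with DR4, within its Wilson interval). This count is not a measure of stability, since several alternatives left the results of the receptor genes unchanged. These were the midpoint of the site, any overlap, the 5′ end of any transcript and 30 kb from the 5′ end alone. At a score of at least 100, 9 sites at 6 receptor genes were left (beside 45.3% of all protein-coding genes), 1 of them nearer to another gene. The 15 sites removed were 62.5% of the 24, beside 39.4% of the list. At a score of at least 200, 6 of the 24 sites were left (25.0%, beside 31.4% of the list). They were at 5 genes (beside 30.6% of all protein-coding genes), and 1 was nearer to another gene. Of the 50 pathway genes, 22 had a site at this limit. The median fold enrichment of the sites left was 13.0 and 17.7. Score and fold enrichment both come from the pileup and the background, so that a score limit raises this median. The medians of the whole list at these limits were not computed. Within 10 kb in place of 30 kb, 2 of 16 sites were nearer to another protein-coding gene, in place of 5 of 24. With the distance kept at 30 kb and genes of any type considered, 12 of 24 were nearer to the 5′ end of another gene. DR4 with at most 1 mismatch was found in 0% of the 24 sites (3.11% of all TRBS) and with at most 3 mismatches in 45.8% (38.2%). Among single genes, 11 of 79 alternative values moved by more than 1.5 times. Alternatives chosen after seeing the data gave 22 sites without Gpr52, 23 with RefSeq records for all genes and 19 without the sites nearer to another gene. No paired analysis was possible because the list holds 1 value a site and none for a single library, which also leaves the spread between libraries unknown.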
